A study of Mus musculus with 6 samples.

Results

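The expression profile of As4.1 cells given an interleukin was set directly against that of As4.1 cells given hydrogen peroxide, as 2 arrays against 2 arrays out of the 6 in the series. Arrays were assigned by their titles, and all 45037 non-control probe sets of the Affymetrix mouse whole-genome array were considered. As4.1 is a mouse line that makes renin, the enzyme that starts the angiotensin cascade. It came from a kidney tumour of a mouse in which the renin promoter drove the SV40 T antigen. Every group (vehicle, hydrogen peroxide or interleukin) held 2 separately grown cultures of this 1 line, each with its own array. The labels give neither which interleukin was used nor any dose, time or vehicle. Vehicle signals are printed as a reference level only, and the vehicle arrays enter no contrast. They add to the estimated spread and to the mean signal that decides which probe sets are tested. Renin itself, the defining product of the line, is not analysed here, as the annotation used names 0 probe sets for Ren1 and 0 for Ren2.

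Inflammatory interleukins act through surface receptors that switch on the transcription factors NF-kappaB, C/EBP and STAT3, which drive genes for chemokines, acute-phase proteins and their own inhibitors. Hydrogen peroxide is an oxidant made by cells and by inflamed tissue. It is known for oxidising thiols, which releases the factor NRF2 and its antioxidant genes, and for breaking DNA, which stabilises the factor p53 and its targets for cell cycle arrest, repair and apoptosis.

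The values are linear MAS5 signals, and a difference is given as log2 of interleukin over hydrogen peroxide, so that positive values mean a higher signal with interleukin. A standard error (SE) is the moderated one of limma, and each group has n = 2 arrays. Array medians lay between 191.7 and 232.0. The 2 arrays of a group correlated at 0.981 to 0.987, and an interleukin with a hydrogen peroxide array at 0.956 to 0.969. The beta-actin control probe sets give a 3'/5' signal ratio, a check on RNA integrity, of 1.46 and 1.55 with interleukin, 1.35 and 1.32 with hydrogen peroxide and 1.22 and 1.26 with vehicle. This ratio did not overlap between the treatments, nor did that of Gapdh (0.8445 and 0.8356 with hydrogen peroxide, 0.8472 and 0.8725 with interleukin). Ratios of 2 other controls were higher and did overlap. Tfrc gave 3.538 and 2.296 with hydrogen peroxide, 3.051 and 3.95 with interleukin and 1.849 and 2.14 with vehicle. Pcx gave 2.887 and 2.029, 2.304 and 2.462, and 1.655 and 1.593 in the same order. The part of these ratios in the differences was not tested. Of 15 leukocyte and macrophage markers on the array, 4 were above a signal of 193.7 on both arrays of each group, and the 15 together summed to 5020 to 5403 with hydrogen peroxide and 7263 to 8254 with interleukin, beside 4409 to 4436 with vehicle. Ptprc, the pan-leukocyte phosphatase CD45, read 21.3 and 67.3 with hydrogen peroxide and 43.1 and 125.7 with interleukin. Endothelial markers summed to 9574 to 16807 and epithelial and tubule markers to 1490 to 2214 over the 6 arrays. Of 11 endothelial markers, 3 were above 193.7 on both arrays of each group. Of 13 epithelial and tubule markers, 3 were so with vehicle, 2 with hydrogen peroxide and 3 with interleukin. Most of the endothelial sum came from the 3 markers above 193.7, Kdr, Eng and Egfl7. Pecam1 and Cdh1, a dim marker from each list, were at or below 80.2 on every array and do not stand for their lists.

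Of 10892 genes tested, 686 were higher with interleukin and 442 higher with hydrogen peroxide at a Benjamini-Hochberg adjusted p of limma below 0.05, which is 6.3% and 4.06% of the genes and 10.4% in all. Over 22519 probe sets the counts were 1115 (4.95%) and 872 (3.87%), together 8.82%, and 2.57% were called and at least 2-fold apart. Differences towards interleukin were larger. They had a median of 1.78-fold, with 256 genes at least 2-fold and 19 at least 8-fold apart. Differences towards hydrogen peroxide had a median of 1.51-fold, with 68 genes at least 2-fold and 2 at least 8-fold apart. Hydrogen peroxide array 2 weighed most on these counts. Without it 377 and 124 genes passed, against 538 and 207 without hydrogen peroxide array 1, and without either vehicle array, which changes the estimated spread but not the difference, 579 or 580 and 284 or 287 passed. With a variance that does not follow the signal, the following genes, called here, had an adjusted p of 0.0519 to 0.254: Avil, Bdkrb1, Bub1, Cd14, Cdkn2b, Celf5, Cfb, Col18a1, Col1a1, Col6a3, Cox6c, Cryab, Ercc1, Fdps, Gbp8, Gpx3, Gsto1, Gstt4, Hmgcs1, Hsph1, Ifi27, Inhbb, Jun, Klk1, Kng1, Ldha, Lig1, Mcl1, Nr3c1, Parp1, Pde3b, Pde4d, Pfkl, Phlda3, Pla2g4a, Psmb9, Relb, Sfrp1, Slc7a5, Stat2 and Ube2c. Signals of the 2 treatments did not overlap in 55.4% of all genes, so that lack of overlap alone is common with 2 arrays a side.

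**Figure D1:**
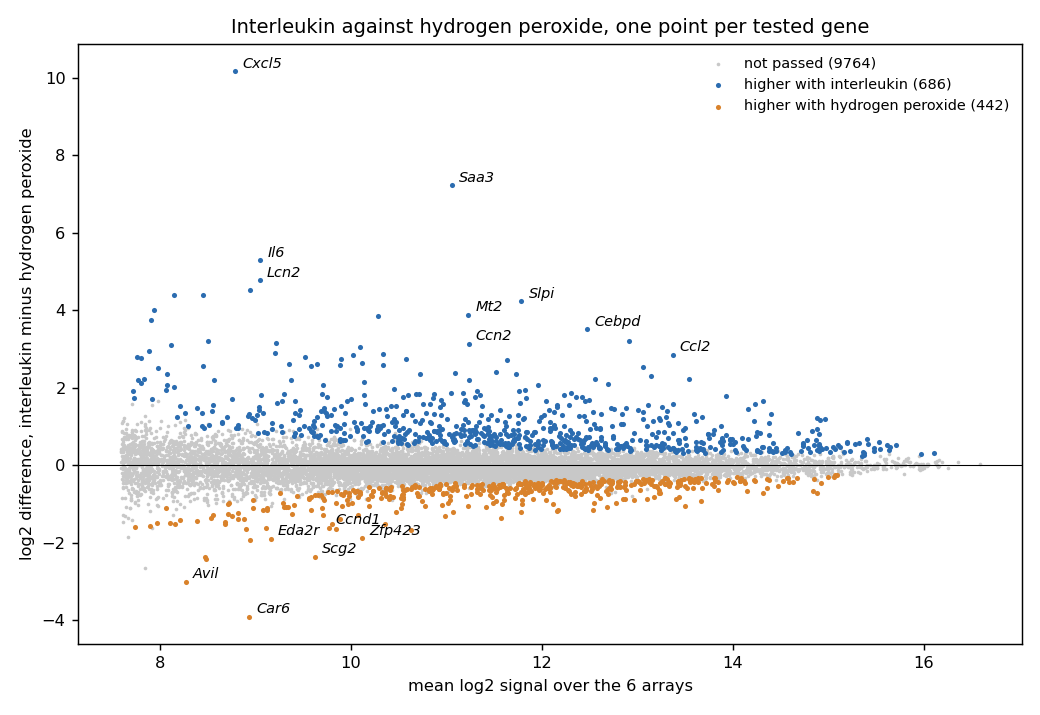
Each point is 1 of 10892 tested genes, with its mean log2 signal over the 6 arrays on the horizontal axis and its log2 difference (interleukin minus hydrogen peroxide) on the vertical axis. The 686 genes higher with interleukin reach 10.17 at Cxcl5, whereas the 442 higher with hydrogen peroxide reach -3.90 at Car6.

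Over all 10892 genes tested, the vehicle level was nearer to hydrogen peroxide in 5940 and to interleukin in 4952. It was nearer to hydrogen peroxide in 530 of the 686 genes higher with interleukin. In 364 of these 686 the vehicle mean lay between the treatments, in 273 below both and in 49 above both. Among the 442 genes higher with hydrogen peroxide, the vehicle mean was nearer to hydrogen peroxide in 262, where interleukin lay below vehicle, and nearer to interleukin in 180. It lay between the treatments in 251, above both in 110 and below both in 81. Positions between, above or below were counted for called genes only.

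The largest differences towards interleukin were in secreted products of the acute inflammatory response. Cxcl5, a chemokine that draws neutrophils, read 18 and 60.2 with hydrogen peroxide and 39264 and 36588 with interleukin, beside 65.4 and 73.8 with vehicle. The difference was 10.17 ± 0.45 (SE, n = 2 each; limma adjusted p = 6.97e-07). Its hydrogen peroxide signals were below 193.7, the lowest geometric mean tested. The size rests on them, since it was 9.13 with 32 added to all signals, 9.30 without hydrogen peroxide array 1 and 11.04 without hydrogen peroxide array 2. Saa3, an acute-phase serum amyloid protein, read 508 and 527 with hydrogen peroxide, 72735 and 81934 with interleukin and 236 and 252 with vehicle, a difference of 7.22 ± 0.13 (adjusted p = 7.31e-10). For Il6, the cytokine interleukin-6, the signals were 249 and 139 with hydrogen peroxide, 9253 and 5717 with interleukin and 132 and 92.9 with vehicle. Its difference was 5.29 ± 0.33 (adjusted p = 6.75e-06). The geometric mean of its hydrogen peroxide arrays, 186.3, was below 193.7 too, so that Il6, like Cxcl5, was tested through its interleukin signal alone. Of all genes tested, 236 had a geometric mean below 193.7 in 1 of the treatments only, among them 22 called higher with interleukin and 10 called higher with hydrogen peroxide. Such genes could pass the rule on low signals through their higher treatment, so their differences are descriptions. No array of one treatment came near any of the other in Cxcl5, Saa3 or Il6.

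The other 9 genes of the 12 with the largest called differences towards interleukin span iron sequestration, complement, detoxification and matrix. Lcn2, a protein that withholds iron from bacteria, was 27.4-fold higher with interleukin (322 and 289 against 9945 and 7014; adjusted p = 1.51e-05). Slpi, an inhibitor of neutrophil proteases, was 18.7-fold higher (1301 and 1000.1 against 19584 and 23297, with 1711 and 1908 with vehicle; adjusted p = 1.37e-07). Abcc3, an efflux pump for organic anions, was 23-fold higher and Lbp, which carries bacterial lipopolysaccharide, 20.9-fold (adjusted p = 3.13e-06 and 1.93e-05). Prelp, a proteoglycan of the matrix, read 658 and 538 with hydrogen peroxide and 10856 and 6686 with interleukin, 14.3-fold apart (adjusted p = 4.76e-06). These 5 were bright with interleukin. With hydrogen peroxide, however, Abcc3 and Lbp had geometric means of 174.0 and 120.9, and Kng1 and Gstt4 of 117.8 and 119.4. All 4 were below 193.7 there and were tested through their interleukin signal alone, so their differences are descriptions. The calls of Kng1 and Gstt4 were also lost when some single arrays were left out. Such fits, here and below, leave 1 array in a group. An adjusted p can rise in them from the smaller number of arrays alone. Kng1, the kininogen precursor of bradykinin, read 75.5 and 184 with hydrogen peroxide and 1725 and 2057 with interleukin (adjusted p = 0.0117), and its p was 0.0555 without hydrogen peroxide array 1 and 0.0569 and 0.0888 without interleukin arrays 1 and 2. Its fold of 16 was 10.2 without hydrogen peroxide array 1 and 24.9 without hydrogen peroxide array 2. Gstt4, a glutathione transferase, had an adjusted p of 0.0196 that became 0.105 without hydrogen peroxide array 2 and 0.065 and 0.132 without interleukin arrays 1 and 2. Cfb and Mt2 complete the 12 and are described with their families.

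**Figure D2:**
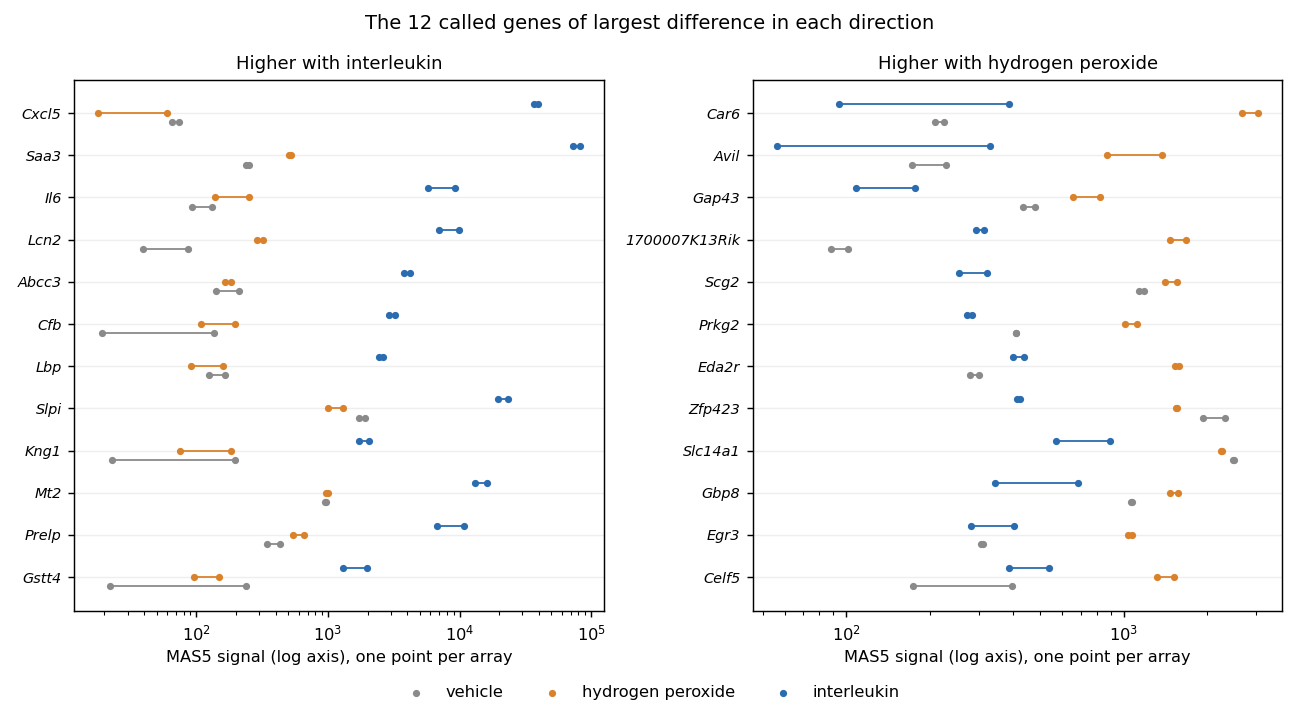
Signal on each of the 6 arrays, on a log axis, for the 12 called genes of largest difference in each direction. Grey points are vehicle, orange hydrogen peroxide and blue interleukin, and a line joins the 2 arrays of a group. In all 24 genes the blue and orange points do not overlap, since that was part of the choice.

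The promoter of Il6 is shown because this gene combined a large difference with a window that held several of the motifs searched. The 250 bases before the start site come from RefSeq (GRCm38.p6, chr5:30012864-30013113, plus strand), with matches in capitals.
Il6: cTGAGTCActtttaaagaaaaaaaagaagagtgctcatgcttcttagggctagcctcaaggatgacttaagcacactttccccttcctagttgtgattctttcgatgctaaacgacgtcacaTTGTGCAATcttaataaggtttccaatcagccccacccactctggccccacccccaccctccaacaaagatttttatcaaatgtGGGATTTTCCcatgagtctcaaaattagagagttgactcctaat
From left to right these are an AP-1 match (TGANTCA, present in 6.75% of 32851 windows of the same length), a C/EBP match (TTNNGCAAT, 1.93%) and a kappaB match. The kappaB search used 2 overlapping forms, GGGA and TT and CC with 1 free base after each of the first 2 parts, or GGG and TTTCC with 2 free bases between, and 2.0% of windows held one or the other. All motifs were sought on both strands. Among called genes that are named here by rule, 53 of 86 higher with interleukin and 28 of 41 higher with hydrogen peroxide had a window. A kappaB match was in 2 of the 53 and 1 of the 28, a C/EBP match in 4 and 0, and an AP-1 match in 3 and 0. A match is a description of the letters and not evidence of a bound site.

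The largest differences towards hydrogen peroxide were in genes of mixed function, and in several of them interleukin was the low group. Car6, a secreted carbonic anhydrase, read 2666 and 3053 with hydrogen peroxide, 385 and 94.3 with interleukin and 208 and 224 with vehicle. It was 15-fold higher with hydrogen peroxide (log2 difference -3.90 ± 0.50; adjusted p = 0.000752), and its difference became -4.92 and -2.89 when interleukin array 1 and array 2 were left out. The geometric mean of Car6 with interleukin, 190.6, was below 193.7, so its difference is a description. Eda2r, a death-domain receptor of the TNF family and a p53 target, read 1526 and 1585 with hydrogen peroxide, 438 and 398 with interleukin and 301 and 279 with vehicle, 3.73-fold apart (adjusted p = 0.000252). In both genes hydrogen peroxide stood apart from the other 4 arrays. The uncharacterised 1700007K13Rik read 1469.8 and 1676 with hydrogen peroxide, 293 and 313 with interleukin and 102 and 88.4 with vehicle (adjusted p = 0.000313). Both treatments were above 193.7, but vehicle was below it. The vehicle and interleukin arrays alone would not have reached that mean. The gene was thus tested through its hydrogen peroxide signals, and its difference is a description too.

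For Scg2, a secretogranin of secretory granules, interleukin was the group that stood apart. It read 1558 and 1402 with hydrogen peroxide, 321 and 256 with interleukin and 1181 and 1134 with vehicle, a difference of -2.37 ± 0.19 (adjusted p = 3.28e-05). Zfp423, a zinc finger transcription factor of early fat and nerve cells, read 1545 and 1548 with hydrogen peroxide, 412 and 423 with interleukin and 1934 and 2311 with vehicle (adjusted p = 5.28e-05). Slc14a1, a urea transporter, read 2266 and 2241 with hydrogen peroxide, 569 and 889 with interleukin and 2491 and 2471 with vehicle (adjusted p = 0.000437). Thus in these 3 genes vehicle was close to hydrogen peroxide or above it. Gbp8, a guanylate-binding protein, read 1573 and 1470.0 with hydrogen peroxide and 686 and 344 with interleukin (adjusted p = 0.00408). Of the remaining genes, Egr3, an early growth response factor, passed with 1 probe set (-1.64 ± 0.25; adjusted p = 0.00225), while its other tested probe set had a difference of 0.26 (adjusted p = 0.844). Avil, an actin-severing protein, had an adjusted p of 0.0165. Its difference of -3.0 ± 0.65 moved to -1.73 without interleukin array 1 and to -4.28 without interleukin array 2. The geometric mean of Avil with interleukin, 136.4, was below 193.7, so its difference is a description too. Celf5, an RNA-binding protein, had an adjusted p of 0.0159, and of 0.107 without hydrogen peroxide array 2 and 0.0843 without interleukin array 1.

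In some genes the vehicle arrays lay strictly between the treatments. This held for 243 of the genes higher with interleukin and 158 of those higher with hydrogen peroxide. It was counted for called genes only, so no share over all genes stands beside it. Ccl8, a monocyte chemokine, was a bright case. It read 3518 and 2325 with hydrogen peroxide, 6349.9 and 5831 with vehicle and 23175 and 30112 with interleukin, a difference of 3.21 ± 0.18 (adjusted p = 3.13e-06). Pgam2, a glycolytic mutase of muscle, read 122 and 62.2 with hydrogen peroxide, 237 and 162 with vehicle and 594 and 618 with interleukin (adjusted p = 0.00227). The geometric mean of Pgam2 with hydrogen peroxide, 87.1, was below 193.7, so its difference is a description. In the other direction Gap43, a growth cone protein of neurons, read 819 and 659 with hydrogen peroxide, 479.6 and 432 with vehicle and 108 and 176 with interleukin (adjusted p = 0.00079). The geometric mean of Gap43 with interleukin, 138.1, was below 193.7, so its difference is a description too. Prkg2, a cGMP-dependent kinase, read 1115 and 1006 with hydrogen peroxide, 408 and 408 with vehicle and 284 and 273 with interleukin (adjusted p = 0.000352). Add2, a protein of the membrane skeleton, had an adjusted p of 0.013, which became 0.0887 without hydrogen peroxide array 1 and 0.0599 without interleukin array 2.

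**Figure D3:**
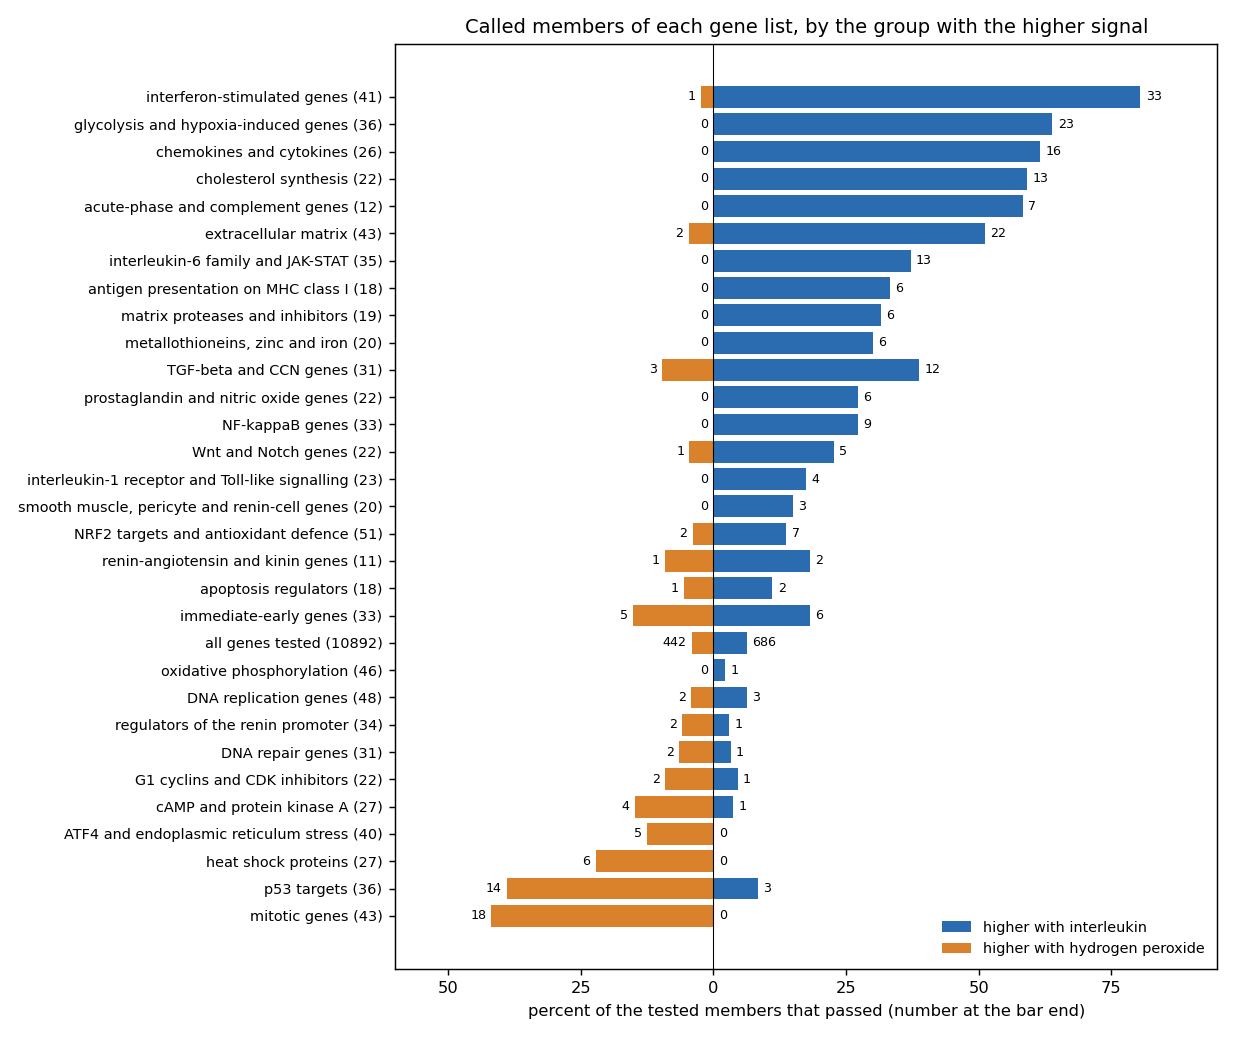
Each bar gives the percent of a list's tested members (number in brackets) that were higher with interleukin (blue, to the right) or higher with hydrogen peroxide (orange, to the left), with the number of members at the bar's end. Lists with fewer than 10 tested members are left out, and all 10892 genes are shown as a reference, with 686 and 442 called.

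Of 32 acute-phase and complement genes on the array, 12 were bright enough to be tested. Of these, 7 were higher with interleukin and 0 with hydrogen peroxide, and the median difference was 1.56, beside -0.04 over all genes tested. For this and every list below, the shares over all genes to set beside the counts are 6.3% and 4.06%. Of 17 acute-phase proteins on the array the 3 that were tested, Saa3, Lcn2 and Ptx3, passed, and 14 were too dim over the 6 arrays. In a fit with no rule on low signals 6 of the 14 were called higher with interleukin and 0 with hydrogen peroxide, beside 0.315% and 0.0411% of all 7301 genes below the limit. The other 8, the serum amyloid Saa2, the orosomucoids Orm1, Orm2 and Orm3, the fibrinogen chains Fga, Fgb and Fgg, and haemopexin, Hpx, were not, and Orm2, Fgb and Fga had differences of -1.80, -1.38 and -0.92 from signals of at most 82.4. Among the 3 tested, Ptx3, a pentraxin that tags microbes, read 2281 and 2639.6 with hydrogen peroxide, 19488 and 13175 with interleukin and 782 and 858 with vehicle (6.53-fold; adjusted p = 7.93e-06). Complement components C1s1 and C1ra, the proteases of the first complex, were 2.99-fold and 2.91-fold higher with interleukin (adjusted p = 8.7e-06 and 9.22e-06). Factor B, Cfb, was 21-fold higher from dim hydrogen peroxide signals (197 and 108; adjusted p = 0.00351, and 0.0673 without a trend of the variance on signal). Their geometric mean, 146.0, was below 193.7, so the difference of Cfb is a description. Serping1, the inhibitor of the same proteases, read 364 and 363 with hydrogen peroxide, 2569.8 and 2468 with interleukin and 451 and 423 with vehicle (adjusted p = 7.66e-06). The regulators on the cell surface, Cd55 and Cd59a, had differences of -0.18 and -0.36 and did not pass.

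Of 26 chemokines and cytokines tested, 16 were higher with interleukin and 0 with hydrogen peroxide (median 1.13). Ccl2, like Ccl7 an attractant of monocytes, read 6084 and 5349 with hydrogen peroxide, 42611 and 39859 with interleukin and 5264 and 4784 with vehicle (7.22-fold; adjusted p = 1.37e-07). Ccl7 was 4.96-fold higher (adjusted p = 1.89e-06) and Ccl5, which acts on T cells, 2.49-fold (adjusted p = 3.22e-05). Of 9 CXC and CX3C chemokines 8 passed. Cxcl1, a neutrophil attractant, read 614 and 593 with hydrogen peroxide and 4887 and 5222 with interleukin (8.37-fold; adjusted p = 9.44e-05), and the interferon-induced Cxcl10 read 2982 and 2809 with hydrogen peroxide and 15817 and 9299.9 with interleukin (4.19-fold; adjusted p = 0.000132). In Cxcl13, an attractant of B cells, hydrogen peroxide was the low group. It read 2434 and 2189 with hydrogen peroxide, 7247 and 6133 with vehicle and 7189 and 9861 with interleukin (adjusted p = 4.12e-05). Among cytokines, Lif of the interleukin-6 family was 6.0-fold and the alarmin Il33 6.09-fold higher with interleukin (adjusted p = 0.000106 and 3.64e-05), whereas Il11, Il18 and Csf1, at 0.77, -0.27 and -0.22, did not pass.

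Of 33 NF-kappaB genes tested, 9 were higher with interleukin and 0 with hydrogen peroxide (median 0.28), with 8 and 1 without interleukin array 1. Among subunits Rela, Rel and Nfkb2 had differences of 0.17, -0.26 and -0.07 and did not pass. Relb passed at 1.75-fold (adjusted p = 0.0126, 0.111 without hydrogen peroxide array 2 and 0.0566 without interleukin array 1). Of 11 inhibitors and feedback genes 4 passed. Nfkbiz, an atypical inhibitor that also coactivates Il6 and Lcn2, read 4830.1 and 5029 with hydrogen peroxide, 32296 and 25729.9 with interleukin and 4527 and 4245 with vehicle (5.85-fold; adjusted p = 9.53e-07). Its other tested probe sets had differences of 2.64 (adjusted p = 6.19e-05) and 0.21 (adjusted p = 0.597). Nfkbia, the classical inhibitor, was 1.77-fold, Bcl3 3.36-fold and the deubiquitinase Tnfaip3 2.89-fold higher with interleukin (adjusted p = 0.000306, 1.65e-05 and 0.0012). The targets Icam1 and Vcam1, adhesion molecules for leukocytes, had differences of 0.76 and 0.52 and did not pass, Vcam1 at an adjusted p of 0.153 that was 0.00576 without interleukin array 2.

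In interleukin-1 receptor and Toll-like signalling, 4 of 23 tested genes were higher with interleukin and 0 with hydrogen peroxide (median 0.08). None of the 12 adaptors and kinases passed, and Myd88, the adaptor shared by these receptors, had a difference of 0.19. The receptor Il1r1 read 3425 and 2736 with hydrogen peroxide, 4787 and 4558 with vehicle and 5641 and 7030.0 with interleukin (2.06-fold; adjusted p = 0.00131). Tlr2, a receptor of bacterial lipoproteins, and its co-receptor Cd14 were 2.86-fold and 1.72-fold higher (adjusted p = 0.00391 and 0.00446). Cd14 was also the only leukocyte marker of 4 tested to pass. Irak3, a pseudokinase that damps the pathway, read 1170.4 and 1232 with hydrogen peroxide and 3539 and 3307 with interleukin (adjusted p = 6.94e-05).

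Of 35 genes of the interleukin-6 family and JAK-STAT signalling tested, 13 were higher with interleukin and 0 with hydrogen peroxide (median 0.30), or 12 and 1 without interleukin array 1. Of 12 receptors 7 passed. Il13ra1, a shared chain of the interleukin-4 and interleukin-13 receptors, read 703 and 521 with hydrogen peroxide, 3843 and 3684 with interleukin and 664 and 547 with vehicle (6.22-fold; adjusted p = 1.51e-05). Osmr, Il4ra and the common signal transducer Il6st were 2.29-fold, 2.73-fold and 1.57-fold higher (adjusted p = 5.07e-05, 0.000268 and 0.00123). Socs3, the feedback inhibitor of STAT3, read 3051 and 3123 with hydrogen peroxide, 10389 and 11243 with interleukin and 3286 and 3345 with vehicle (3.5-fold; adjusted p = 3.78e-06), whereas Socs1, Socs2 and Cish, at 0.17, 0.16 and 0.26, did not pass. Cebpd, a C/EBP factor induced in the acute phase, read 2476 and 2195 with hydrogen peroxide and 28304 and 24862 with interleukin, 11.4-fold apart (adjusted p = 9.18e-08), with a second probe set at 1.21 (adjusted p = 0.0778). Cebpb, its partner, had a difference of 0.30 and did not pass (adjusted p = 0.0649, and 0.0384 without interleukin array 2).

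Interferon-stimulated genes held the highest share of called members among lists with at least 10 tested. Of 41 tested, 33 were higher with interleukin and 1 with hydrogen peroxide, and the median was 1.03. No array left out moved these counts by over 1.5 times. In 37 of the 41 the vehicle mean was nearer to hydrogen peroxide. Oas2, a sensor of viral double-stranded RNA, read 618 and 635 with hydrogen peroxide, 4761 and 3658 with interleukin and 333 and 338 with vehicle (6.66-fold; adjusted p = 8.7e-06). Zbp1, a nucleic acid sensor, read 1269.6 and 1198 with hydrogen peroxide, 7009 and 5598 with interleukin and 649.9 and 610.1 with vehicle (5.08-fold; adjusted p = 8.09e-06). Usp18, which removes ISG15 and limits interferon signalling, was 2.79-fold and Ifit3 3.81-fold higher (adjusted p = 1.88e-05 and 0.000733). All 12 GTPases and PARPs of the list on the array passed. The list does not hold the whole families, and Gbp8 and Parp1, outside this group, were higher with hydrogen peroxide. Iigp1, a GTPase against intracellular pathogens, read 2044 and 1971 with hydrogen peroxide and 11996 and 9414 with interleukin (5.29-fold; adjusted p = 3.62e-06). Of the transcription factors, Irf7 and Stat2 were 2.47-fold and 1.94-fold higher (adjusted p = 0.000382 and 0.00559), whereas Irf1 had a difference of -0.01. Ifi27 was the exception, at 24846 and 24538 with hydrogen peroxide, 14404 and 16974 with interleukin and 14876 and 16009 with vehicle (-0.66 ± 0.10; adjusted p = 0.00178).

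Oas1a, at 7141 and 6291 with hydrogen peroxide, 19614 and 17782 with interleukin and 3464 and 3323 with vehicle (2.79-fold; adjusted p = 1.51e-05), stands for this group because its window held the interferon-stimulated response motif searched, GAAA and again GAAA after 2 free bases, as an overlapping pair just before the start. The 250 bases are from RefSeq (GRCm38.p6, chr5:120907526-120907775, minus strand), with the pair in capitals.
Oas1a: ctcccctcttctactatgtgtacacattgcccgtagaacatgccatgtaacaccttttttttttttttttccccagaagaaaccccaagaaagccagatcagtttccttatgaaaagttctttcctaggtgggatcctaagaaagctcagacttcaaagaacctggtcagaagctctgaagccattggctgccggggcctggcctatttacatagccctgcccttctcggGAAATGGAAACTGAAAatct
The motif occurred in 2.98% of all windows, and in 3 of the 53 windows of named genes higher with interleukin and 1 of the 28 higher with hydrogen peroxide.

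**Figure D4:**
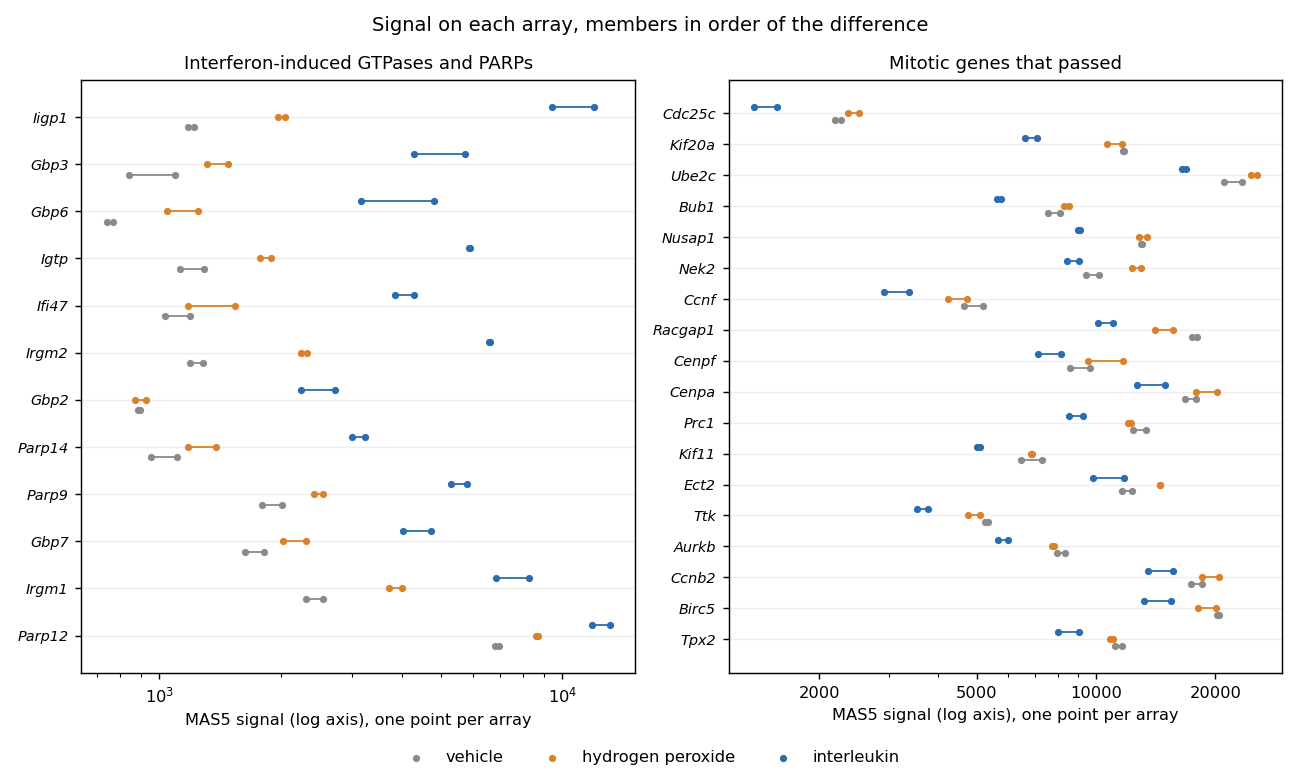
Signal on each array, on log axes, for the 12 tested interferon-induced GTPases and PARPs (left) and the 18 mitotic genes that passed (right). Grey is vehicle, orange hydrogen peroxide and blue interleukin, and a line joins the 2 arrays of a group. On the left interleukin is the highest group in all 12, which leave out Gbp8, a guanylate-binding protein that was higher with hydrogen peroxide (1573 and 1470.0, against 686 and 344), and on the right it has the lowest mean, with its arrays below the other 4 in all but Ect2.

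Of 18 genes for antigen presentation on MHC class I, 6 were higher with interleukin and 0 with hydrogen peroxide (median 0.31), or 3 and 0 without either hydrogen peroxide array. The peptide transporter Tap1 read 2297 and 2047 with hydrogen peroxide and 4418 and 3736 with interleukin (1.87-fold), and the immunoproteasome subunit Psmb9 was 1.82-fold higher (adjusted p = 0.00223 and 0.004). The class I heavy chains H2-K1 and H2-D1, at 0.16 and 0.18, did not pass, and probes may not tell these close paralogs apart.

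More p53 targets were higher with hydrogen peroxide than with interleukin. Of 36 tested, 14 were higher with hydrogen peroxide and 3 with interleukin, and the median was -0.49. Without hydrogen peroxide array 2 the counts were 9 and 3. Among genes of cell cycle arrest, Cdkn1a, the CDK inhibitor p21, read 13343 and 13796 with hydrogen peroxide, 6213 and 5995 with interleukin and 2556 and 2547 with vehicle (2.22-fold; adjusted p = 5.07e-05). Ccng1, cyclin G1, was 2.06-fold higher with hydrogen peroxide (adjusted p = 0.000424). Of the feedback genes, Mdm2, the ligase that degrades p53, read 6459.8 and 7336 with hydrogen peroxide, 3145 and 2862 with interleukin and 2119 and 2144 with vehicle (2.29-fold; adjusted p = 0.000155), and Phlda3, an inhibitor of AKT, was 1.61-fold higher with hydrogen peroxide (adjusted p = 0.00356). Interleukin stood above vehicle in Cdkn1a and Mdm2 as well, so the order of the groups was vehicle, interleukin, hydrogen peroxide. The proapoptotic Trp53inp1 and Aen were 2.1-fold and 1.83-fold higher with hydrogen peroxide (adjusted p = 0.000569 and 0.00407), and Dcxr, a xylulose reductase, 2.32-fold (adjusted p = 0.000464). The 3 members higher with interleukin were Fas, a death receptor, Dram1, a regulator of autophagy, and Gadd45a, a stress sensor that other pathways also induce. Fas read 1127 and 829 with hydrogen peroxide, 3526 and 4122 with interleukin and 898 and 619 with vehicle (3.95-fold; adjusted p = 0.000252), Dram1 was 5.24-fold higher (adjusted p = 6.82e-06) and Gadd45a 1.81-fold (adjusted p = 0.000519). The proapoptotic Bbc3 and Pmaip1 had differences of -0.19 and -1.36 and did not pass, Pmaip1 at an adjusted p of 0.0581 that was 0.0475 without interleukin array 1.

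The p53 recognition sequence is a repeat of decamers whose core is often CATG, and a pair of such cores 6 bases apart was added to the search after the Cdkn1a window had been read. RefSeq lists 2 windows for Cdkn1a, and the first is shown (GRCm38.p6, chr17:29090729-29090978, plus strand), with the pair in capitals.
Cdkn1a: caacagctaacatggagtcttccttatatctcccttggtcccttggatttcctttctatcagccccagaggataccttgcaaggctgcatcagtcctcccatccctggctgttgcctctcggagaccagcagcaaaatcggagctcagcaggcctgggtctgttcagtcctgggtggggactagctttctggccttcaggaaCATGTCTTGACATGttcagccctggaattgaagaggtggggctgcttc
The pair occurred in 0.49% of all windows. It was in 1 of the 28 windows of named genes higher with hydrogen peroxide, this one, and in 0 of the 53 higher with interleukin.

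**Figure D5:**
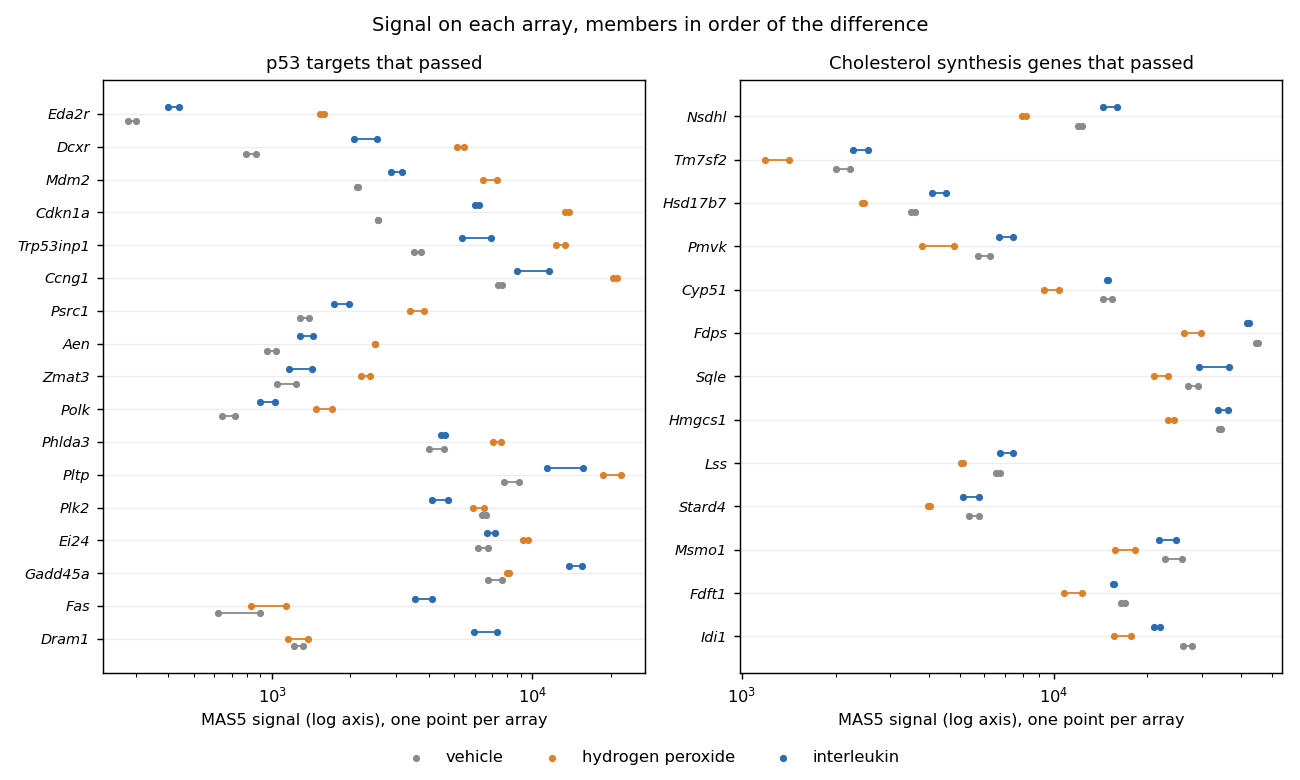
Signal on each array, on log axes, for the 17 p53 targets (left) and the 13 cholesterol synthesis genes (right) that passed. Grey is vehicle, orange hydrogen peroxide and blue interleukin, and a line joins the 2 arrays of a group. In 14 of the targets hydrogen peroxide is above interleukin, with Fas, Dram1 and Gadd45a reversed, and on the right hydrogen peroxide is the lowest group throughout.

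Of 31 factors of DNA repair tested, 1 was higher with interleukin (Lig1, a DNA ligase) and 2 with hydrogen peroxide (Parp1 and Ercc1), with a median of -0.08. Together these are 9.68% of the list, close to the 10.4% of all genes. Each lost its call without some array. Lig1 had an adjusted p of 0.0176, and of 0.128 without hydrogen peroxide array 2 and 0.0697 without interleukin array 2. Parp1, a sensor of DNA breaks, had 0.0284, and 0.0821, 0.171 and 0.0959 without hydrogen peroxide array 1, its array 2 and interleukin array 1. Ercc1, of nucleotide excision repair, had 0.0419, and 0.0739 to 0.185 without any 1 array other than interleukin array 2. Among G1 cyclins and CDK inhibitors, 1 of 22 was higher with interleukin and 2 with hydrogen peroxide (median -0.01), or 0 and 2 without either hydrogen peroxide array and 2 and 3 without interleukin array 1. Ccnd1, cyclin D1, read 1918 and 1997 with hydrogen peroxide, 689.5 and 599 with interleukin and 488 and 569.9 with vehicle (3.05-fold; adjusted p = 0.00031), and its other tested probe sets had differences of -1.04 and -1.08. Cdkn1a was the other gene higher with hydrogen peroxide. In all, 13.6% of this list was called, beside 10.4% of all genes. Cdkn2b, the inhibitor p15, was 1.57-fold higher with interleukin (adjusted p = 0.035, and 0.0694, 0.192 and 0.149 without hydrogen peroxide array 1, its array 2 and interleukin array 1).

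Of 51 NRF2 targets and antioxidant genes tested, 7 were higher with interleukin (13.7%, beside 6.3% of all genes) and 2 with hydrogen peroxide (3.92%, beside 4.06%), and the median was -0.01. The counts were 7 and 1 without hydrogen peroxide array 1 and 6 and 1 without hydrogen peroxide array 2. The classical targets Nqo1, Hmox1, Txnrd1 and Srxn1 had differences of -0.30, -0.41, -0.26 and -0.08 and did not pass. Nor did Gclc and Gclm, the subunits of glutathione synthesis, at -0.40 and -0.23, although Gclc had an adjusted p of 0.0221 without interleukin array 2. Of the 2 members higher with hydrogen peroxide, Ephx1, an epoxide hydrolase, read 6536 and 7042 with it, against 2539.8 and 2717 with interleukin and 1552 and 1596 with vehicle (2.58-fold; adjusted p = 5.59e-05). Gsto1, a glutathione transferase, was 1.37-fold higher (adjusted p = 0.0113, and 0.0622, 0.0739 and 0.0529 without hydrogen peroxide array 1, its array 2 and interleukin array 2). In the other direction Sod2, the mitochondrial superoxide dismutase and an NF-kappaB target, read 7464 and 7079.8 with hydrogen peroxide, 34349.9 and 34189 with interleukin and 6979.5 and 6521 with vehicle (4.71-fold; adjusted p = 2.93e-07). The extracellular Sod3 was 2.36-fold higher with interleukin (adjusted p = 0.0001), whereas the cytosolic Sod1 had a difference of -0.11. Mgst1, Gstt1 and Gpx3 of glutathione use were 2.2-fold, 2.43-fold and 1.6-fold higher with interleukin (adjusted p = 0.000169, 0.000268 and 0.000467).

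Metallothioneins and metal transporters were higher with interleukin in 6 of 20 tested genes and with hydrogen peroxide in 0 (median 0.31). Mt2, a small protein that binds zinc and copper, read 997 and 966 with hydrogen peroxide, 13101 and 16153 with interleukin and 955 and 971 with vehicle (14.8-fold; adjusted p = 1.37e-07). All 4 hydrogen peroxide and vehicle arrays lay between 955 and 997. Mt1 was 3.5-fold and Slc39a14, the zinc importer ZIP14 of the acute phase, 3.07-fold higher with interleukin (adjusted p = 0.000149 and 2.48e-05). Slc11a2, which carries ferrous iron, was 2.16-fold higher (adjusted p = 0.000333). The metal-sensing factor Mtf1 and the zinc exporter Slc30a1, at -0.31 and 0.03, did not pass.

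The Mt2 window (RefSeq, GRCm38.p6, chr8:94172368-94172617, plus strand) is shown as that of a gene in which the oxidant signal lay at the vehicle level. The single match among the motifs searched, AP-1, is in capitals.
Mt2: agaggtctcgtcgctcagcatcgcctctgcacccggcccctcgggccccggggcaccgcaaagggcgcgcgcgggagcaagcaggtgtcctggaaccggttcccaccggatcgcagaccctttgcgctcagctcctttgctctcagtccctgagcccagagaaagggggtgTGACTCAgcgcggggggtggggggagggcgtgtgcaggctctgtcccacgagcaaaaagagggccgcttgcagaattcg
The antioxidant response motif searched, TGAC and GCA with 3 free bases between, is absent from this window, as from most. The motif was in 2.47% of all windows, in 1 of the 53 windows of named genes higher with interleukin and in 2 of the 28 higher with hydrogen peroxide. Any link of its absence to the Mt2 signals was not tested.

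Of 40 ATF4 and endoplasmic reticulum stress genes, 0 were higher with interleukin and 5 with hydrogen peroxide (12.5%, beside 4.06% of all genes). The median was -0.04. The count was 3, 0, 2, 2 and 2 without hydrogen peroxide array 1, hydrogen peroxide array 2, interleukin array 2, vehicle array 1 and vehicle array 2, and 10 (with 1 higher with interleukin) without interleukin array 1. The 2 interleukin arrays differed in this group. Asns, asparagine synthetase, read 10723 and 5178 with interleukin and 11146 and 12739.6 with hydrogen peroxide, and Phgdh, the first enzyme of serine synthesis, 10900.3 and 5076 with interleukin and 12494 and 13486 with hydrogen peroxide. Neither passed (adjusted p = 0.132 and 0.0843), but both did without interleukin array 1 (0.00116 and 0.000309). Over the 20 ATF4 targets the median log2 gap from interleukin array 2 to array 1 was 0.35, beside -0.01 over all genes tested. Slc7a5, a large amino acid transporter, read 6227 and 6642 with hydrogen peroxide, 3923 and 3081 with interleukin and 2872 and 3872 with vehicle (1.85-fold; adjusted p = 0.007, and 0.0573 and 0.0513 without hydrogen peroxide array 2 and interleukin array 2). The luminal chaperone Hspa5 had a difference of 0.10. Of 27 heat shock proteins 0 were higher with interleukin and 6 with hydrogen peroxide (median -0.12), or 0 and 2 without either hydrogen peroxide array. Cryab, the small heat shock protein alphaB-crystallin, read 7649 and 7404 with hydrogen peroxide, 4985 and 4085 with interleukin and 3770.0 and 3792 with vehicle (1.67-fold; adjusted p = 0.00355), and Hsph1 was 1.35-fold higher (adjusted p = 0.0048). Dnajb1 and Hspa1a, at -0.11 and 0.06, did not pass.

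Of 43 mitotic genes tested, 0 were higher with interleukin and 18 with hydrogen peroxide (median -0.29). The count was 7 without either hydrogen peroxide array and 11 (with 1 higher with interleukin) without interleukin array 1. In 38 of the 43 the vehicle mean was nearer to hydrogen peroxide. Kif20a, a kinesin of cytokinesis, read 10661 and 11637 with hydrogen peroxide, 6602 and 7084 with interleukin and 11768 and 11663 with vehicle (1.63-fold; adjusted p = 0.00105). Ube2c, which marks cyclin B for destruction, was 1.5-fold and the checkpoint kinase Bub1 1.48-fold higher with hydrogen peroxide (adjusted p = 0.00148 and 0.0047). Cdc25c, the phosphatase that activates CDK1, read 2521 and 2359.7 with hydrogen peroxide, 1367 and 1566 with interleukin and 2273 and 2194 with vehicle (adjusted p = 0.00738). The proliferation markers Mki67 and Top2a, at -0.06 and -0.22, and Cdk1, at -0.17, did not pass. Of 48 DNA replication genes 3 were higher with interleukin and 2 with hydrogen peroxide (median 0.04). Together these are 10.4% of the list, the same share as of all genes. The counts were 2 and 0, 1 and 0, 3 and 0 and 1 and 1 without, in turn, the 2 hydrogen peroxide and the 2 interleukin arrays, and 3 and 0 without either vehicle array. Ctps, which makes CTP, was the clear member, at 6378 and 5910.4 with hydrogen peroxide and 12832 and 12814 with interleukin (2.09-fold; adjusted p = 9.01e-05). The sliding clamp Pcna and the helicase subunits Mcm2 and Mcm5, at 0.11, 0.15 and 0.02, did not pass. In bulk samples, fewer dividing cells and less RNA per cell cannot be told apart.

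Of 36 glycolysis and hypoxia-induced genes tested, 23 were higher with interleukin and 0 with hydrogen peroxide, with a median of 0.51. Without hydrogen peroxide array 2 the count was 15, and without interleukin array 2 it was 19 with 1 gene higher with hydrogen peroxide. Adm, the vasodilator peptide adrenomedullin, read 1997 and 1548 with hydrogen peroxide, 5708 and 5495 with interleukin and 771 and 776 with vehicle (3.19-fold; adjusted p = 7.31e-05). Bnip3, which directs mitochondria to autophagy, was 2.36-fold and P4ha2, a collagen prolyl hydroxylase, 2.48-fold higher (adjusted p = 2.78e-05 and 6.84e-05). Along glycolysis, Hk2, Pfkl, Pfkfb3 and Ldha were 1.87-fold, 1.86-fold, 2.26-fold and 1.5-fold higher (adjusted p = 0.00172, 0.00117, 0.000598 and 0.00366). Of the hypoxia-induced genes Egln3 and Ero1a, at -0.40 and -0.38, did not pass, Egln3 at an adjusted p of 0.0548 that was 0.0152 without interleukin array 2. Of 46 oxidative phosphorylation genes 1 was higher with interleukin (Cox6c, a subunit of cytochrome oxidase, adjusted p = 0.0427, and 0.0808 to 0.172 without any 1 array other than interleukin array 1) and 0 with hydrogen peroxide, with a median of -0.06, and 0 of 23 complex I genes passed. Without hydrogen peroxide array 1 the counts were 0 and 1.

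Of 22 cholesterol synthesis genes tested 13 were higher with interleukin and 0 with hydrogen peroxide (median 0.46), and without hydrogen peroxide array 2 the count was 6. In 21 of the 22 the vehicle mean was nearer to interleukin. The median difference from vehicle was 0.01 for interleukin and -0.52 for hydrogen peroxide. Nsdhl, a dehydrogenase of the late pathway, read 8183 and 7937 with hydrogen peroxide, 15933 and 14380.5 with interleukin and 11956 and 12318 with vehicle (1.88-fold; adjusted p = 0.000152). Fdps, which makes farnesyl diphosphate, read 29621 and 26115 with hydrogen peroxide, 41611 and 42259.6 with interleukin and 44726 and 45180.3 with vehicle (1.51-fold; adjusted p = 0.000903), and Hmgcs1, at the entry of the pathway, 24289 and 23289 with hydrogen peroxide, 36354 and 33559.7 with interleukin and 33819 and 34339 with vehicle (1.47-fold; adjusted p = 0.00112). In all 3 hydrogen peroxide lay below the other 4 arrays. The sterol sensors Srebf2 and Insig1, at 0.35 and 0.19, did not pass, Srebf2 at an adjusted p of 0.0698 that was 0.0399 without interleukin array 1.

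Extracellular matrix genes were higher with interleukin in 22 of 43 tested and with hydrogen peroxide in 2 (median 0.40). Without interleukin array 2 the counts were 15 and 1, without hydrogen peroxide array 2 they were 13 and 1, and without hydrogen peroxide array 1 or interleukin array 1 they were 20 and 1 or 23 and 1. Some members were high with interleukin and others low with hydrogen peroxide. The vehicle mean was nearer to hydrogen peroxide in 21 and to interleukin in 22, beside 5940 and 4952 of all genes tested. Dcn, the proteoglycan decorin, read 3711 and 3112 with hydrogen peroxide, 14682 and 17426 with interleukin and 3905 and 4046 with vehicle (4.71-fold; adjusted p = 2.98e-06). Lox, which cross-links collagen, read 20929.5 and 20497 with hydrogen peroxide, 45949 and 48874 with interleukin and 32381 and 34309 with vehicle (2.29-fold; adjusted p = 5.61e-06). Fbln1, the matrix protein fibulin-1, was 3.42-fold higher with interleukin (adjusted p = 1.24e-05). Of 13 collagens 6 were higher with interleukin, with Col3a1 at 2.48-fold (adjusted p = 1.51e-05) and Col1a1 at 1.39-fold (adjusted p = 0.00559). For Col1a1 vehicle, at 42337 and 48001, was above both treatments (27476 and 26449 with hydrogen peroxide and 35930.1 and 39096 with interleukin). Col6a3 went the other way, at 22169.5 and 23574 with hydrogen peroxide and 13699 and 14283 with interleukin (-0.71 ± 0.11; adjusted p = 0.00263), as did the dim Col18a1 (adjusted p = 0.0216, and 0.0521 to 0.14 without any 1 of the 4 treated arrays).

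Of 19 matrix proteases and inhibitors 6 were higher with interleukin and 0 with hydrogen peroxide (median 0.32). Timp1, an inhibitor of metalloproteases, read 9147 and 7989 with hydrogen peroxide and 16908 and 19538 with interleukin (2.13-fold; adjusted p = 0.000118), Adamts9 was 3.19-fold higher (adjusted p = 0.00133), and Mmp2 and Mmp14, at 0.02 and 0.22, did not pass. Among TGF-beta and CCN genes 12 of 31 were higher with interleukin and 3 with hydrogen peroxide (median 0.29), or 8 and 1 without hydrogen peroxide array 2. Ccn2, the connective tissue growth factor, read 1146 and 1007 with hydrogen peroxide, 9765 and 9032 with interleukin and 1494 and 1283 with vehicle (8.74-fold; adjusted p = 6.97e-07). Tgfbi, a TGF-beta-induced matrix protein, was 6.03-fold higher with interleukin (adjusted p = 4.97e-06), and Fst, the activin inhibitor follistatin, 3.53-fold (adjusted p = 0.000404). Ccn1, close kin of Ccn2, had a difference of 0.34 and did not pass. Inhbb, the activin B subunit, was higher with hydrogen peroxide, at 31416 and 31726 against 16463 and 22194 with interleukin and 44659 and 46337 with vehicle (-0.72 ± 0.12; adjusted p = 0.00365).

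Immediate-early genes divided between the treatments, with 6 of 33 higher with interleukin and 5 with hydrogen peroxide (median -0.04), or 4 and 3 without hydrogen peroxide array 2. The zinc finger factor Egr1, a target of ERK signalling, read 8491 and 8209 with hydrogen peroxide, 3838 and 3555 with interleukin and 3153 and 3107 with vehicle (2.26-fold; adjusted p = 7.33e-05), and Dusp6, the ERK phosphatase, 1766 and 1704 with hydrogen peroxide, 938 and 1056 with interleukin and 966 and 991 with vehicle (1.74-fold; adjusted p = 0.00893, and 0.0544 without hydrogen peroxide array 2). In both, interleukin stood near vehicle. Junb, an AP-1 subunit, stood on the other side, at 7233 and 6798 with hydrogen peroxide, 18661 and 20844 with interleukin and 6219.5 and 7293 with vehicle (2.81-fold; adjusted p = 1.6e-05). Jun and Ier3 were 2.01-fold and 1.82-fold higher with interleukin (adjusted p = 0.00776 and 0.000166). Klf4, a factor that holds back smooth muscle differentiation, was low with interleukin, at 6511 and 6565, against 10690.3 and 10684 with hydrogen peroxide and 13259 and 12118 with vehicle (adjusted p = 0.000855). Fos had a difference of -0.32 and did not pass.

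Of 18 apoptosis regulators 2 were higher with interleukin and 1 with hydrogen peroxide (median 0.09), or 2 and 0 without hydrogen peroxide array 2 and 2 and 2 without interleukin array 1. The called members are 16.7% of the list, beside 10.4% of all genes. Casp12, a caspase of the endoplasmic reticulum, and Bmf, a BH3-only protein, were 2.63-fold and 1.84-fold higher with interleukin (adjusted p = 0.00379 and 0.00497). The survival gene Mcl1 was 1.36-fold higher with hydrogen peroxide (adjusted p = 0.0117). Its other tested probe sets had the same direction. The one at -0.65 passed (adjusted p = 0.00435), and the rest, at -0.25 to -0.31, did not. Among 22 prostaglandin and nitric oxide genes 6 were higher with interleukin and 0 with hydrogen peroxide (median 0.22), or 4 and 1 without hydrogen peroxide array 1 and 5 and 2 without interleukin array 1. Ptgs2, the inducible cyclooxygenase, read 2339.7 and 2346 with hydrogen peroxide, 14145 and 10341 with interleukin and 1465 and 1292 with vehicle (5.16-fold; adjusted p = 7.93e-06). Pla2g4a, which frees its substrate, was 1.9-fold higher (adjusted p = 0.0059), while the prostaglandin E synthase Ptges had a difference of -0.14. Gch1, for the cofactor of nitric oxide synthase, and the arginine transporter Slc7a2 were 2.24-fold and 4.57-fold higher with interleukin (adjusted p = 0.00585 and 0.00396), the latter from dim hydrogen peroxide signals of 181 and 145. Their geometric mean, 162.2, was below 193.7, so the difference of Slc7a2 is a description.

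In the renin-angiotensin and kinin group 0 of 7 tested angiotensin genes passed. Ace, the angiotensin-converting enzyme, had a difference of 0.27, Atp6ap2, the prorenin receptor, -0.09 and Agtr1a, the angiotensin II receptor, 0.09. Of 4 kinin genes 2 were higher with interleukin and 1 with hydrogen peroxide. Besides Kng1, Bdkrb1, the inducible kinin receptor, was 1.7-fold higher with interleukin (adjusted p = 0.00662, 0.0515 without interleukin array 2), and Klk1, a kallikrein from a family of near-identical genes that its probes may not tell apart, was 1.85-fold higher with hydrogen peroxide (adjusted p = 0.0413, 0.0753 to 0.179 without any 1 array other than interleukin array 1). Over all 11 genes of the group the counts were 1 and 0, 2 and 0, 1 and 1 and 0 and 0 without, in turn, the 2 hydrogen peroxide and the 2 interleukin arrays, and 2 and 0 without either vehicle array. Of 34 regulators of the renin promoter 1 was higher with interleukin and 2 with hydrogen peroxide (median 0.01). Together these are 8.82% of the list, beside 10.4% of all genes. The counts were 1 and 0 without hydrogen peroxide array 2, 0 and 3 without interleukin array 2, and 0 and 0 without any other array. The glucocorticoid receptor Nr3c1 read 7010.2 and 7446 with hydrogen peroxide, 4924 and 5934 with interleukin and 9595 and 9752 with vehicle (adjusted p = 0.0429, and 0.0845 to 0.233 without any 1 array other than interleukin array 2). The cAMP-responsive Creb1 and the cofactors Crebbp and Ep300, at -0.03, -0.15 and -0.11, did not pass.

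Of 27 cAMP and protein kinase A genes 1 was higher with interleukin and 4 with hydrogen peroxide (median -0.04), or 1 and 2, 0 and 1 and 0 and 3 without hydrogen peroxide array 1, its array 2 and interleukin array 1. Called members made up 18.5% of the list, beside 10.4% of all genes. Pde4d and Pde3b, enzymes that hydrolyse cAMP, were highest with vehicle and lowest with interleukin. Pde4d read 12903 and 13249.5 with vehicle, 9714 and 9344 with hydrogen peroxide and 6422 and 6707 with interleukin (adjusted p = 0.00436), and Pde3b 12777 and 13588 with vehicle, 9282 and 10228 with hydrogen peroxide and 6132 and 7023 with interleukin (adjusted p = 0.00704, 0.0766 without hydrogen peroxide array 2). The catalytic subunits Prkaca and Prkacb were at 0.04 each. Of 20 smooth muscle, pericyte and renin-cell genes 3 were higher with interleukin and 0 with hydrogen peroxide (median 0.17), and 0 of 9 contractile genes passed. Acta2, smooth muscle actin, had a difference of 0.37 (adjusted p = 0.214, and 0.00529 without interleukin array 2). Pdgfrb, the receptor that marks pericytes, read 8500.5 and 7956 with hydrogen peroxide, 15398 and 13740.4 with interleukin and 10045 and 9735 with vehicle (1.77-fold; adjusted p = 0.000416). Kcnj8, a potassium channel of the same cells, was low with hydrogen peroxide, at 849.6 and 672 against 1595 and 2522 with interleukin and 2405 and 2327 with vehicle (adjusted p = 0.00235). Myh11 and Rgs5, other markers of mural cells, were at or below 201.6 on every array.

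Of 22 Wnt and Notch genes 5 were higher with interleukin and 1 with hydrogen peroxide (median -0.02), or 2 and 0 without hydrogen peroxide array 2 and 4 and 0 without interleukin array 1. Sfrp4 and Sfrp1, secreted Wnt inhibitors, were 2 of the 5. Sfrp4 read 1451 and 1239 with hydrogen peroxide, 3673 and 4453 with interleukin and 2639.9 and 2391 with vehicle (3.02-fold; adjusted p = 8.61e-05), and Sfrp1 was 2.2-fold higher with interleukin (adjusted p = 0.00347). The Wnt ligands Wnt4 and Wnt5a, at -0.02 and -0.20, and the effector Ctnnb1, at -0.01, did not pass. Among markers of other cells, 0 of 3 tested endothelial and 0 of 2 tested epithelial and tubule markers passed.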

How the data were processed

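RNA from 6 cultures was hybridised to 1 array each. The values are MAS5 signals, an intensity per probe set, as deposited by the authors; MAS5 is named per the submitters' processing notes, without a version. The 2% trimmed mean of each array was the same, so signals were taken as scaled between arrays, and 0 columns belonged to other samples.

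log2 signals were fitted with limma 3.58.1 in R 4.3.3 (a mean per group over all 6 arrays, variance trend on mean signal, 3 residual degrees of freedom), and interleukin was contrasted with hydrogen peroxide. Probe sets in the upper part of mean signal, at a geometric mean of at least 193.7, were tested (22519 of 45037). A call is a Benjamini-Hochberg adjusted p below 0.05 over all of these. A gene is its probe set of highest mean signal with 1 annotated symbol, 10892 in all. Besides cases given above, another tested probe set did not pass in Add2, Cox6c, Ercc1, Fbln1, Gch1, Hmgcs1, Klk1, Lox, Nr3c1, Parp1, Sfrp1 and Slc39a14. Tables were made in Python 3.11.15 with pandas 2.3.3, and the fit was tested on simulated data.

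Genes named are the 12 largest called differences in each direction without overlap, the 3 in each direction farthest from vehicle on both sides, and members of 33 gene lists by role. The members and lists were chosen with earlier results of these data known, so no list was tested as a set. Beside each fit, alternatives changed the scaling, pseudocount, filter, variance model, arrays and probe sets used. Precision is limited by having 2 arrays in each group. Promoter windows of 250 bases are from RefSeq (GRCm38.p6).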

Additional observations from a re-analysis of the deposited data

How the results depend on the processing

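Of 144 genes named by rule, 127 were called. Over 2501 values under the alternatives 2321 kept their side of the threshold, 167 no longer passed and 13 newly passed. Among values that passed in the main fit or in the alternative, 0 changed sign. Changes of sign in values that passed in neither were not counted. Over probe sets, 1987 were called (1115 higher with interleukin, 872 with hydrogen peroxide). Without a variance trend there were 716 (503 and 213), and at 2-fold or more 579 (417 and 162). Without probe sets whose suffix (_s_at, _x_at or _a_at) marks probes shared by transcripts or genes there were 1280 (734 and 546). The count higher with hydrogen peroxide was 556 with no filter and 565 with the 4 treated arrays alone. With 1 array left out, the total ran from 839 to 1919, that higher with interleukin from 635 to 944 and that higher with hydrogen peroxide from 204 to 975, lowest without hydrogen peroxide array 2. Quantile normalization gave 2098 and centring on the 75th percentile 2017 (1278 and 739). The median difference of all tested probe sets was -0.05, and -0.01 after that centring.

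A fit with the replicate number as a block called 1756 (1028 and 728), and ended the calls of Ercc1 and Klk1 (adjusted p = 0.0589 and 0.0548). Same-numbered arrays of the 2 treatments deviated with a correlation of -0.13, so the numbers are not shown to pair the cultures. A block with crossed numbers, added after seeing the data, called 2543 (1285 and 1258).

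With 2 arrays a group and 1 cell line, p-values measure the spread between these cultures only. Doses and times are not in the labels, so whether the treatments match in strength is unknown. Probe sets with a geometric mean below 193.7 were not tested.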

Other observations

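The rule on low signals left out 7301 genes, among them 14 acute-phase proteins. A fit with no such rule called 23 of them higher with interleukin and 3 higher with hydrogen peroxide, and the genes given here were chosen after their values were seen. Hp, haptoglobin, which binds free haemoglobin, read 11.5 and 9.5 with hydrogen peroxide, 4890.3 and 8484 with interleukin and 11.6 and 8.1 with vehicle (limma adjusted p = 5.69e-05 in that fit). Csf3, the granulocyte colony-stimulating factor, read 63.1 and 88 with hydrogen peroxide, 2629 and 3055 with interleukin and 26 and 29.4 with vehicle (adjusted p = 0.000143). Serpina3n, a protease inhibitor, read 35.4 and 53.3 with hydrogen peroxide, 1996 and 2111 with interleukin and 15.9 and 19.4 with vehicle (adjusted p = 0.000491), and Cp, the iron oxidase ceruloplasmin, 16.7 and 17.2 with hydrogen peroxide, 1123 and 1275 with interleukin and 34.5 and 28.5 with vehicle (adjusted p = 0.000593). In each of these the interleukin arrays stood alone, and the size of the difference rests on dim signals. Further members of the 23 were Saa1, Saa4, Steap4, Camp, Cxcl2 and Acod1. The 8 acute-phase proteins not called in that fit were Saa2, Orm1, Orm2, Orm3, Fga, Fgb, Fgg and Hpx.

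The 3 dim genes higher with hydrogen peroxide were Perp, Matn4 and Nipal3. Perp, a p53 target of cell adhesion and apoptosis, read 661 and 657 with hydrogen peroxide, 65.8 and 99.6 with interleukin and 52.9 and 67.8 with vehicle (-3.02 ± 0.50; adjusted p = 0.00975 in the fit with no rule on low signals). Matn4, a matrilin of the matrix, read 413 and 478 with hydrogen peroxide, 52.7 and 73.2 with interleukin and 106 and 129 with vehicle (adjusted p = 0.0126). In Perp and Matn4 hydrogen peroxide was the group that stood above the other 4 arrays.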
